A study of Mus musculus with 6 samples.

Results

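Psca and 8 of its relatives in the Ly6/uPAR family were followed in colon tumors from mice with and without the M3 muscarinic receptor. The group holds Psca, Ly6a, Ly6c1, Ly6d, Ly6e, Ly6k, Lynx1, Slurp1 and Plaur. Of these 9 genes, 8 are among the 19057 that the platform annotation names. The members were chosen by the measured fold change of Psca: it was among the genes furthest below WT tumors in these same arrays, and the relatives were added for their kinship to it. All probes annotated to a member were taken: 8 of the 9 genes had one, Ly6a had none named here, and the 8 genes had 12 probes of 45281 on the array. Of these 12 probes, 10 from 7 genes were bright enough to be tested, a probe being tested where its mean log2 value over the arrays was at or above the median of all probes. The values that chose Psca come from the contrast described here, so Psca is given as a description, without a test.

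The study asked how loss of the M3 receptor gene, Chrm3, changes gene expression in colon tumors induced by azoxymethane (AOM), a colon carcinogen. Tumor RNA from 3 WT mice and 3 Chrm3-/- mice was hybridized, 1 Illumina bead array for each mouse. All 6 mice had the same mixed strain, 129S6/SvEvTac X CF1 in equal parts, and an age of 7 months by their labels. The study's methods state that only males were used and that the mice of a genotype were different animals. AOM was injected weekly for 6 weeks at 10 mg/kg from an age of 6 weeks, with tumors taken 20 weeks after the start. That schedule ends before an age of 7 months, and the sources read do not explain the difference from the labels. WT mice therefore carried the same carcinogen exposure as Chrm3-/- mice without the gene deletion, which in Chrm3-/- mice was present in the whole animal and not only in tumor cells. An untreated colon was not analysed here, so every value compares tumor with tumor. The study reports that WT tumors were mostly adenocarcinomas. Its Chrm3-/- mice had smaller tumors, with about as many adenomas as adenocarcinomas. The stage and size of the 6 tumors on the arrays are not stated, so genotype and tumor stage cannot be told apart here.

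Ly6/uPAR proteins share a small fold held by disulfide bonds, the three-finger fold. Most are tethered to the outer cell membrane by a glycosylphosphatidylinositol (GPI) anchor, and a few are secreted. Many of the mouse genes lie side by side on chromosome 15. Members of the family bind very different partners: Plaur is the receptor of the protease urokinase, Lynx1 and the secreted Slurp1 bind nicotinic acetylcholine receptors, and Psca, prostate stem cell antigen, is a surface protein of epithelia such as those of bladder, prostate and stomach and is found in several human carcinomas. Ly6a (Sca-1) and Ly6c1 mark subsets of blood cells and vessels in mice, Ly6d marks squamous epithelium and early B cells, Ly6e is widely expressed and interferon-inducible, and Ly6k is best known from testis.

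The sequences that could be tied to members are the primers the study designed for Psca and the stretches before the starts of Ly6c1 and Plaur, 2 of the 9 genes found in the promoter table, together with Cd177, a relative with wide differences. The primers show which transcript the study followed by qPCR, whose values were not used here. Both are 20 bases long.
Psca forward: ccacctacttagccctgcat
Psca reverse: tgttcatctgtgctgtgcat

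The promoter windows hold the 250 bases before the annotated start, 5′ to 3′ on the strand of the gene, from RefSeq on GRCm38.p6. They lie at chr15:75048838-75049087 on the minus strand for Ly6c1, chr7:24462233-24462482 on the plus strand for Plaur and chr7:24760312-24760561 on the minus strand for Cd177. Ly6c1 has more than 1 start and the outermost was used. Capitals mark matches, on either strand, to 5 short elements, with N for any base. The STAT element was searched as TTCNNNGAA, the AP-1 element as TGANTCA and the core element of many promoters as TATAAA. The Sp1-type element was searched as GGGCGG, and the element bound by NF-Y as CCAAT.
Ly6c1: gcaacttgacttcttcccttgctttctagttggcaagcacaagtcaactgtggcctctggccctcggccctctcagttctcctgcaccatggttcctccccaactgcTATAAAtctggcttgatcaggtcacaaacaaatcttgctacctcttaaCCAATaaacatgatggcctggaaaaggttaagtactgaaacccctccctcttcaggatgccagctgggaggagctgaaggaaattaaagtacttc
Plaur: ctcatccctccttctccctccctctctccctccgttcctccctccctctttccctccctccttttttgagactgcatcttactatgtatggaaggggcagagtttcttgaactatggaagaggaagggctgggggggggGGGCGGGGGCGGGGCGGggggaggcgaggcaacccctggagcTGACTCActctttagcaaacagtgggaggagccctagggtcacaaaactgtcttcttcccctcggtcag
Cd177: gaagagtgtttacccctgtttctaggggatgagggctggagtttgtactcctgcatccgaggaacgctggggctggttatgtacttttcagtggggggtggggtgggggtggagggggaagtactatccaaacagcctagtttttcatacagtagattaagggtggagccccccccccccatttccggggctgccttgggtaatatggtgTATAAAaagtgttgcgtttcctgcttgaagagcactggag

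The Ly6c1 window held a TATAAA that begins 143 bases before the start and a CCAAT that begins 95 bases before it. The Plaur window held 3 overlapping or adjoining GGGCGG matches and 1 TGANTCA, which begins 69 bases before the start. The Cd177 window held a TATAAA that begins 40 bases before the start. Among all 32851 windows of this length, TATAAA was found in 12.4%, CCAAT in 33.8%, GGGCGG in 32.7% and TGANTCA in 6.75%, while TTCNNNGAA (7.02%) was in none of the 3 windows shown. A match describes letters and not a bound site.

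Values are normalized intensities on a linear scale. On each array 46.1% of probes carried values under 2, nearly all of them evenly spaced numbers that hold only a rank, so a value under 2 is read as not above background. Fold changes are differences of log2(value + 50), Chrm3-/- minus WT, which understates the change of dim probes. Arrays correlated at 0.982 to 0.986 among WT tumors and at 0.916 to 0.973 among Chrm3-/- tumors. Chrm3-/- replicate 1 stood apart on the first principal component, at 87.8, and replicate 2 lay farthest on the other side, at -45.5. That component held 53.0% of the variance. Values without Chrm3-/- replicate 1 are given beside most fold changes and medians. Chrm3 itself was read by 1 dim probe, with 9.06, 1.80 and 1.94 in the WT tumors and 25.1, 32.1 and 21.9 in the Chrm3-/- tumors. Where that probe lies relative to the deleted part is not stated in the sources read, and it therefore checks neither genotype nor label. The colon epithelium markers were all present, 13 of 13 with a probe and a tested value, with a summed level of 46339 to 65078 in WT and 43228 to 91674 in Chrm3-/- tumors. In whole tumor RNA, fewer cells of a type and less RNA per cell cannot be told apart.

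Psca had normalized intensities of 1161, 476.8 and 305.8 in the 3 WT tumors and of 13.8, 49.6 and 40.8 in the 3 Chrm3-/- tumors. Every Chrm3-/- tumor lay below every WT tumor, and all 6 values stood above the limit of 2. The WT mean was 647.7 ± 452.3 and the Chrm3-/- mean 34.7 ± 18.6 (SD, n = 3 each), a ratio of 18.7 on the intensity scale. The log2 fold change of value + 50 was -2.87 with a standard error of 0.45, and -2.68 without Chrm3-/- replicate 1. The WT tumors differed among themselves as well, with replicate 1 well above replicates 2 and 3. Among the 22641 tested probes, that of Psca ranked as the eighth lowest fold change. The probes just past it on the lower side were those of Lcn2 (-2.90) and Mgp (-3.06), and those just short of it were Prcp (-2.87) and Isl1 (-2.85).

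**Figure D1:**
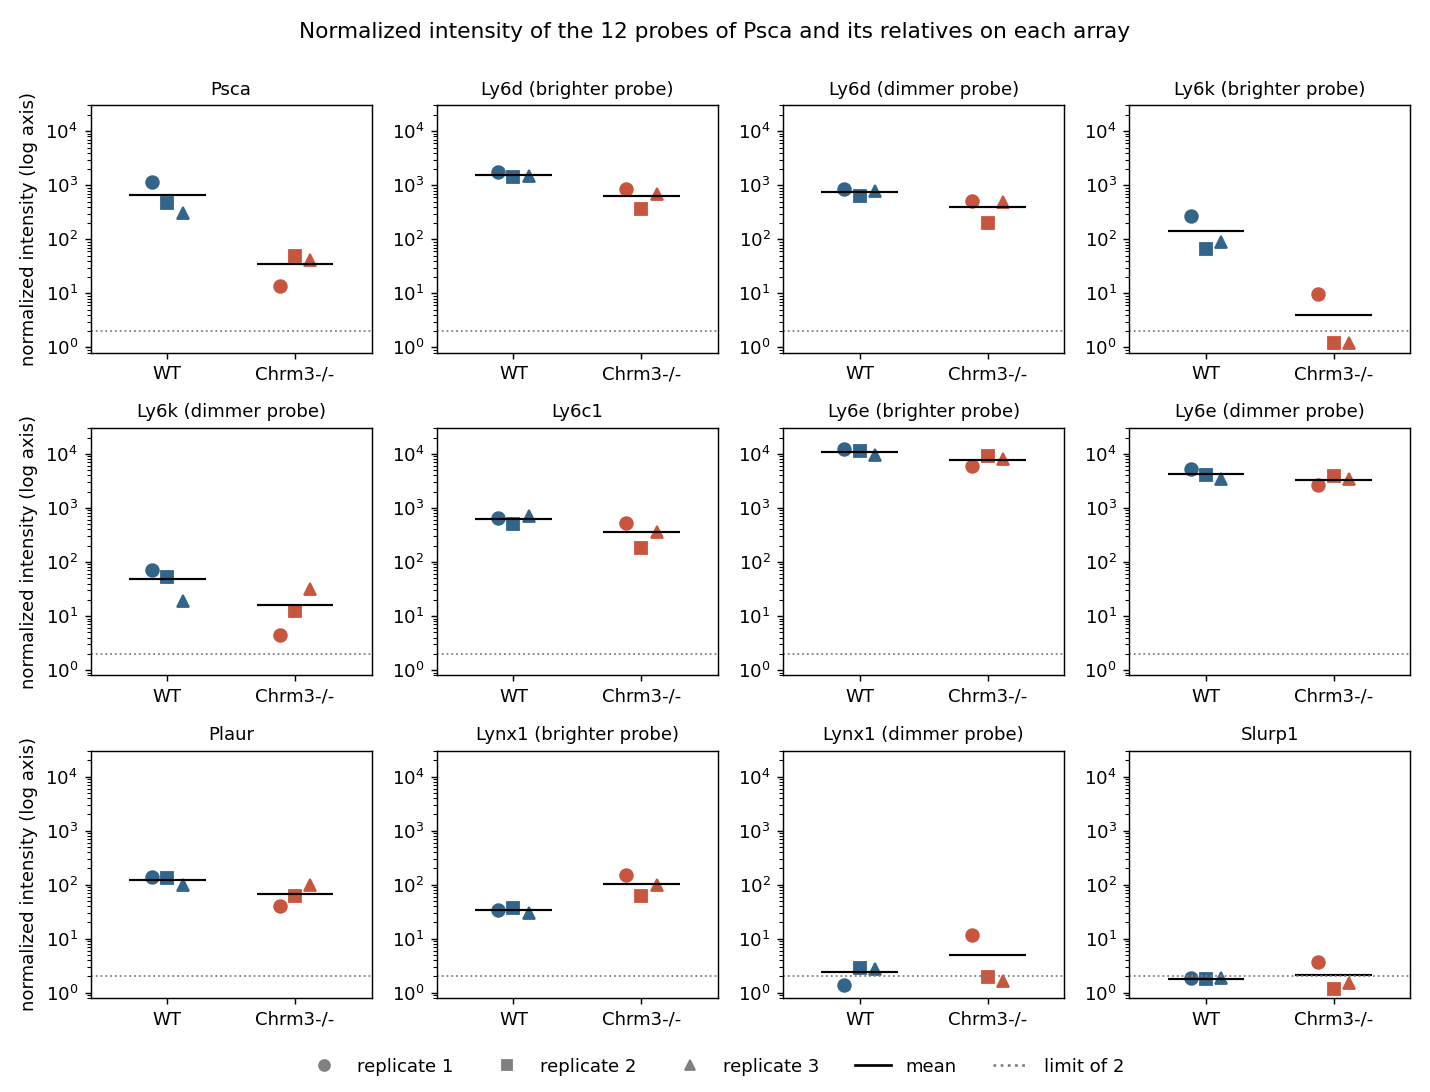
Normalized intensity (log axis) of the 12 probes of Psca and its relatives in 3 WT and 3 Chrm3-/- tumors. Each symbol is 1 array, the bar is the group mean and the dotted line is the limit of 2. Psca, both Ly6d probes and the brighter Ly6k and Ly6e probes have all Chrm3-/- tumors below all WT tumors, and the brighter Lynx1 probe has them above.

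Ly6d and Ly6k, which lie close to Psca on chromosome 15, had, by their brighter probes and on the log2(value + 50) scale, the largest differences among the relatives chosen with it. On plain log2 values that of Lynx1 (1.52) was larger than that of Ly6d (-1.39). The brighter Ly6d probe read 1764, 1407 and 1488 in WT tumors and 843.7, 356.8 and 686.6 in Chrm3-/- tumors. The groups did not overlap, and replicate 2 was the lowest of the Chrm3-/- tumors. This gave a log2 fold change of -1.31 (SE 0.30), 2.48-fold lower, at a limma adjusted p of 0.468 over all tested probes. The second Ly6d probe gave 866.9, 638.4 and 776 against 511.1, 197.1 and 491.9, again without overlap and with the same Chrm3-/- tumor lowest, at a log2 fold change of -0.93 (SE 0.34, limma adjusted p = 0.970). Without Chrm3-/- replicate 1 the 2 probes stood at -1.54 and -1.14, and without Chrm3-/- replicate 2 at -0.98 and -0.55.

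The brighter Ly6k probe read 272.7, 66.1 and 88.0 in WT tumors and 9.54, 1.21 and 1.22 in Chrm3-/- tumors. It was not above background in Chrm3-/- replicates 2 and 3, and WT replicate 1 was the highest of its group, as for Psca. On the log2 scale the difference was -1.68 (SE 0.37, limma adjusted p = 0.432), and -1.76 without Chrm3-/- replicate 1. The mean log2 value of this probe reached the limit for testing only through the WT tumors, so its p is a description. The dimmer Ly6k probe, at 70.8, 53.2 and 18.6 in WT and 4.44, 12.3 and 31.7 in Chrm3-/- tumors, did not separate the groups, since Chrm3-/- replicate 3 exceeded WT replicate 3. Its log2 fold change was -0.54 (SE 0.25, limma adjusted p = 0.990), or -0.41 without Chrm3-/- replicate 1, so the 2 probes of Ly6k shared a direction and differed in size.

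Ly6d also marks squamous epithelium, and that list of markers was read in the same arrays. Of 17 squamous markers, all with a probe, 10 were tested, with 5 below and 5 above WT, a median of -0.01 and none past the test. None of the 10 was below WT without Chrm3-/- replicate 1, and the median was then 0.37. Their summed level ran from 3136 to 5983 in WT and from 826.8 to 12365 in Chrm3-/- tumors, so the groups overlapped. Krt14, a keratin of basal squamous cells, read 2006, 794.7 and 3615 in WT tumors and 129.1, 781.4 and 5184 in Chrm3-/- tumors. Their part in the Ly6d values was not tested.

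Ly6c1 read 665.2, 499 and 724.4 in WT tumors and 531.1, 179.3 and 351.6 in Chrm3-/- tumors. The groups overlapped, because Chrm3-/- replicate 1 exceeded WT replicate 2. The log2 difference was -0.84 (SE 0.35, limma adjusted p = 0.990), -1.15 without Chrm3-/- replicate 1 and -0.48 without Chrm3-/- replicate 2. Ly6c2, a near-identical neighbor, has no probe named here, and its transcript may be read by the Ly6c1 probe, so the identity of the signal is uncertain. Endothelial markers, 12 tested of 13, had a median of -0.05 with 8 below WT, and their summed level was 2701 to 2866 in WT and 2370 to 3132 in Chrm3-/- tumors. Macrophage and monocyte markers, 7 tested of 10, had a median of 0.06 with 3 below WT and sums of 4467 to 6988 against 3252 to 10284. Without Chrm3-/- replicate 1 the endothelial median was -0.07 with 8 below WT, and the macrophage and monocyte median was -0.26 with 6 of 7 below WT. The part of either in the Ly6c1 values was not tested.

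Ly6e was read brightly by both of its probes. The brighter gave 12413, 11135 and 9563 in WT tumors and 6071, 9323 and 8101 in Chrm3-/- tumors. The groups did not overlap, but the lowest WT tumor and the highest Chrm3-/- tumor were close. The log2 fold change was -0.51 (SE 0.19, limma adjusted p = 0.984), and -0.33 without Chrm3-/- replicate 1, the lowest array. The second probe, at 5177, 4113 and 3496 against 2673, 3923 and 3450, overlapped between groups and had a log2 fold change of -0.34 (SE 0.21, limma adjusted p = 0.990), or -0.19 both without that array and without WT replicate 1. Among 26 other interferon-response genes, 21 were tested, 14 stood below WT and none passed the test, with a median of -0.17. Without Chrm3-/- replicate 1, 20 of the 21 stood below WT and the median was -0.47. Ifitm3, a membrane protein that restricts viral entry, had 22214, 16980 and 14290 in WT tumors and 4302, 17170 and 15076 in Chrm3-/- tumors, with only Chrm3-/- replicate 1 outside the WT range. Irf1, an interferon-induced transcription factor, had 2965, 2153 and 2375 against 4143, 1445 and 1926, where replicate 1 was instead the highest array.

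Lynx1 was the 1 relative in the group that stood higher in Chrm3-/- tumors. Its brighter probe read 33.8, 36.9 and 30.2 in WT tumors and 148.3, 61.0 and 98.2 in Chrm3-/- tumors, without overlap and with the WT tumors close together. Its log2 fold change was 0.83 (SE 0.23, limma adjusted p = 0.770), and 0.62 without Chrm3-/- replicate 1, the highest array. The ratio of the mean intensities was 3.05. The dimmer Lynx1 probe had 1.42, 2.91 and 2.80 against 11.5, 1.92 and 1.62 and was too dim to be tested. Slurp1 was under the limit of 2 on 5 of 6 arrays, the exception being Chrm3-/- replicate 1 at 3.67, and was thus not above background in any WT tumor. Of 21 nicotinic receptor subunits and acetylcholine-handling genes, the partners and surroundings of these proteins, only 4 were bright enough to be tested, 2 below and 2 above WT with a median of -0.44, and none passed. With Chrm3-/- replicate 1 left out, 3 were below WT and the median was -0.11. Chrnb1, a subunit of the muscle-type nicotinic receptor, had 2695, 1985 and 1640 in WT tumors and 185.7, 2268 and 1414 in Chrm3-/- tumors, where replicate 1 alone was far below.

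Plaur, which lies on chromosome 7, read 136.1, 132.5 and 98.5 in WT tumors and 40.9, 62.0 and 100.1 in Chrm3-/- tumors. Chrm3-/- replicate 3 was above the lowest WT tumor, so the groups overlapped. The log2 fold change was -0.57 (SE 0.24, limma adjusted p = 0.990), and -0.40 without Chrm3-/- replicate 1. Of 15 other genes of the urokinase system, 9 were tested, 4 below and 5 above WT, with a median of 0.01 and none past the test. Without Chrm3-/- replicate 1, 7 of the 9 were below WT and the median was -0.06. Plau, urokinase itself and the ligand of Plaur, had 125.3, 258.2 and 149.8 in WT tumors and 98.6, 190.9 and 135.3 in Chrm3-/- tumors, or -0.23 on the log2 scale (SE 0.29). Plat, the tissue-type plasminogen activator, had 5232, 3326 and 2272 against 70.0, 2904 and 1432, and moved from -2.10 to -0.73 without Chrm3-/- replicate 1.

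Over all probes, 28 of 22641 passed the limma test at an adjusted p under 0.05, which is 0.124%. None of the 9 tested probes of the relatives of Psca passed it, while 7 of the 9 had an unadjusted p under 0.05, against 4.82% of all tested probes. That count was 3 without WT replicate 1, 4 without WT replicate 2 and 3 by the unmoderated test. Over all 22641 probes the counts in these settings were 698, 872 and 1238. It was 5 without WT replicate 3, Chrm3-/- replicate 1 or Chrm3-/- replicate 2, beside 780, 1687 and 1754 of all probes. Without Chrm3-/- replicate 3 it was 6, beside 1156, and with a replicate block 5, beside 880. The unmoderated test of each probe passed none of the 9 after adjustment, whereas a limma fit that weights each array by its fit to its group passed 3, those of Ly6d, Ly6k and Lynx1 (adjusted p 0.0279, 0.0482 and 0.0366). Over all probes that fit passed 252 of 22641, which is 1.11%, and it gave most of its weight to Chrm3-/- replicate 3. Fold changes of 8 of the 9 probes were below WT, with a median of -0.57, or -0.41 without Chrm3-/- replicate 1, beside a median of 0.01 and 47.6% below WT over all tested probes. Groups without overlap were found in 4 of the 9 on the lower side, where the background was 5.5%, and in 1 of the 9 on the higher side, where it was 5.2%. The 4 probes belong to 3 genes, and several genes of the group have 2 probes, so the probes are not independent. As the members were chosen with results of these data known, these counts are descriptions. They include the brighter Ly6k probe, which was bright enough to be tested only through its WT values. Among the 9 probes below WT, Psca included, the lowest Chrm3-/- tumor was replicate 1 in 5 and replicate 2 in 4.

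**Figure D2:**
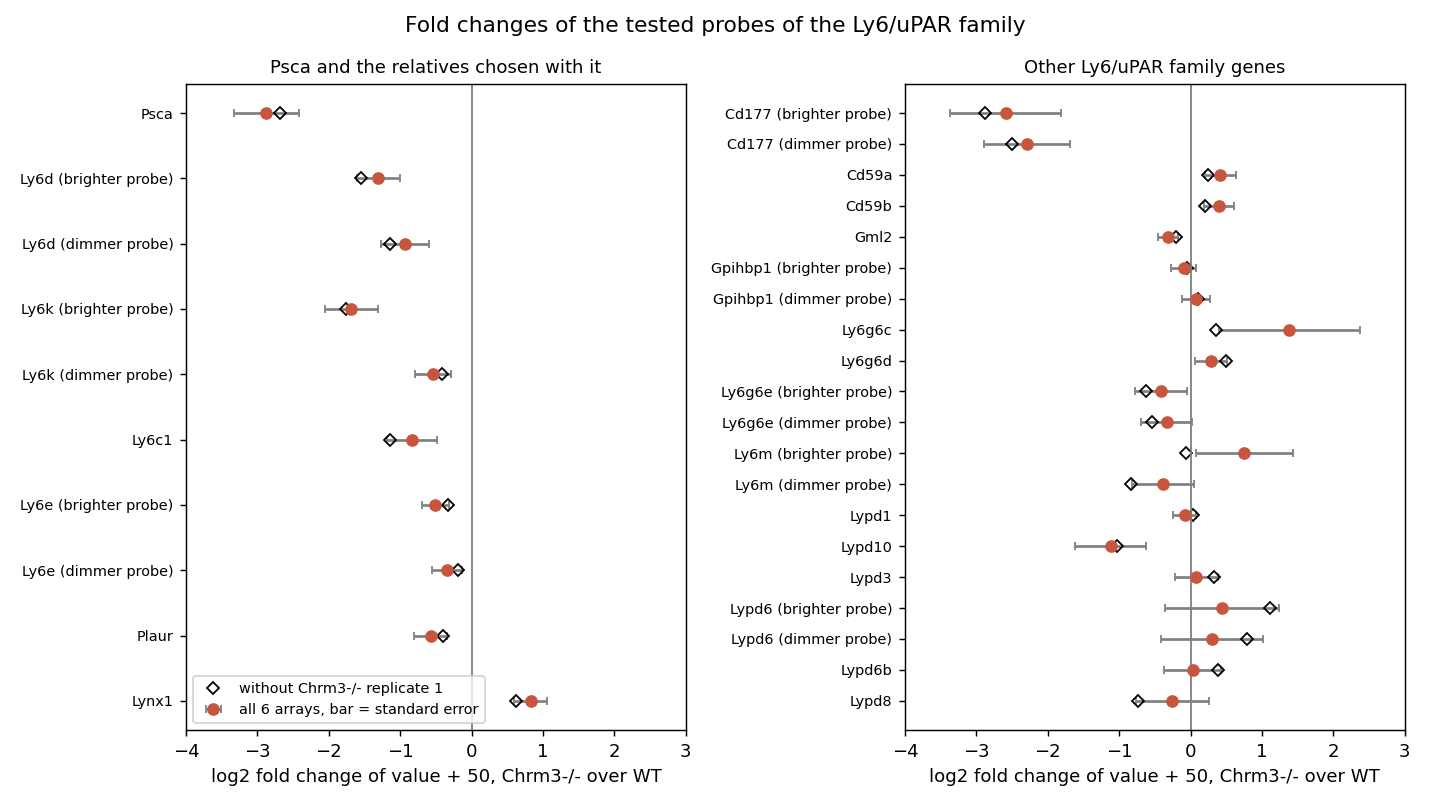
Log2 fold changes of value + 50, Chrm3-/- over WT, for the tested probes of Psca and the relatives chosen with it (left) and of other Ly6/uPAR genes (right). Filled points use all 6 arrays with the standard error as bar and open diamonds leave out Chrm3-/- replicate 1; 9 of 10 probes on the left lie below 0, and 10 of 20 on the right.

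The wider family was read to see whether other Ly6 relatives of Psca differed with it. Of 39 further family genes, 30 had a probe and 15 had a tested one, with 20 tested probes among them. None of the 20 passed the limma test (2 at an unadjusted p under 0.05, and none with array weights or the unmoderated test), 10 lay below and 10 above WT, and their median was -0.02. Cd177, a neutrophil surface antigen encoded on chromosome 7, had the lowest values relative to WT. Its brighter probe gave 1659, 2543 and 2107 in WT tumors and 476.7, 42.6 and 850.2 in Chrm3-/- tumors, or -2.59 on the log2 scale (SE 0.78, limma adjusted p = 0.840). Its second probe gave 448.4, 838.6 and 648.3 against 137.1, 1.84 and 222.8, a log2 fold change of -2.29 (SE 0.60, limma adjusted p = 0.673). Neither probe overlapped between groups, and Chrm3-/- replicate 2 was the lowest by both, a different array from the lowest of Psca. Without Chrm3-/- replicate 1 the fold changes of the 2 probes were -2.88 and -2.51, with replicate 2, the lowest array, still included.

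Neutrophil markers were read beside Cd177. Of 9 markers, 7 were tested, 6 below WT and none past the test, with a median of -0.73, or -0.46 without Chrm3-/- replicate 1. Their summed level ran from 892.4 to 4189 in WT and from 107.9 to 1295 in Chrm3-/- tumors. The sum was lowest in Chrm3-/- replicate 1. So were S100a8, S100a9 (1.91 there) and Ltf (1.78 there), all highest in WT replicate 1, where Cd177 was lowest of the WT tumors. Retnlg, another marker, had 73.0, 174.2 and 152.8 in WT and 64.9, 35.2 and 74.8 in Chrm3-/- tumors. Its lowest arrays within each genotype were WT replicate 1 and Chrm3-/- replicate 2, as for Cd177. Ngp was under the limit of 2 on all arrays. S100a8, an abundant calcium-binding protein of neutrophils, had 1419, 387.9 and 927.2 in WT tumors and 2.42, 280.5 and 375.6 in Chrm3-/- tumors. Their part in the Cd177 values was not tested.

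The complement inhibitors Cd59a and Cd59b, also GPI-anchored and on chromosome 2, stood slightly higher in Chrm3-/- tumors without overlap. Cd59a had 329.9, 453.6 and 435.4 in WT and 714.8, 487.3 and 487.7 in Chrm3-/- tumors, or 0.42 on the log2 scale (SE 0.22, limma adjusted p = 0.990). Cd59b had 66.8, 51.2 and 52.0 against 132.6, 70.1 and 75.5, a log2 fold change of 0.40 (SE 0.21, limma adjusted p = 0.990). Both were highest in Chrm3-/- replicate 1, and without it they stood at 0.25 and 0.21. Ly6g6c, from the smaller family cluster on chromosome 17, had 113.5, 132.9 and 90.4 in WT and 1684, 32.8 and 469.9 in Chrm3-/- tumors, and its log2 fold change of 1.38 dropped to 0.36 without replicate 1. Lypd8, a colon epithelial protein that binds flagellated bacteria, had 3389, 4657 and 7032 in WT and 7864, 1920 and 4289 in Chrm3-/- tumors, with overlap. Its log2 fold change was -0.25 (SE 0.51), or -0.73 without Chrm3-/- replicate 1, the highest array. Lypd10, on chromosome 7, had 35.1, 198.2 and 190.2 in WT and 19.2, 4.64 and 80.6 in Chrm3-/- tumors, where 1 WT tumor was as dim as the Chrm3-/- tumors, and stood at -1.12 (SE 0.50), or -1.02 without Chrm3-/- replicate 1. Of 30 genes of GPI anchor synthesis, all 26 with a probe were tested, 14 below and 12 above WT, with a median of -0.01 and none past the test. Without Chrm3-/- replicate 1, 12 lay below WT and the median was 0.01.

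Position along chromosome 15 was then set beside the fold changes. Of the 9 members 8 lie on chromosome 15, and from Psca to Gpihbp1 RefSeq (GRCm38.p6, used for gene order only) lists 29 protein-coding genes, 21 of them on the family list. Them6, the gene next to Psca and not a family member, read 1014, 1059 and 917.9 in WT tumors and 559.1, 754.6 and 444.3 in Chrm3-/- tumors by its brightest probe. These groups did not overlap, and the log2 fold change was -0.75 (SE 0.21, limma adjusted p = 0.778), or -0.73 without Chrm3-/- replicate 1. A dimmer Them6 probe overlapped between groups at -0.28, or -0.34 without Chrm3-/- replicate 1. The dimmest, under 2 in every Chrm3-/- tumor, stood at -0.19. Lynx1, which lies between Psca and Ly6d, stood on the other side of 0. Farther along, Gml2 was at -0.32 (SE 0.14, and -0.21 without Chrm3-/- replicate 1), while the 2 probes of Ly6m stood at 0.75 and -0.38, the first through Chrm3-/- replicate 1 at 1076 (-0.06 without it). Gpihbp1, which carries lipoprotein lipase on endothelium, had log2 fold changes of -0.10 and 0.07 by its 2 probes. Genes inside and within 20 genes of either end of this stretch that are not on the family list numbered 48, of which 28 were tested: 15 lay below and 13 above WT, the median was -0.04 and none passed the test. Them6 had the lowest fold change of the 28. With Chrm3-/- replicate 1 left out, 12 lay below WT and the median was 0.02.

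**Figure D3:**
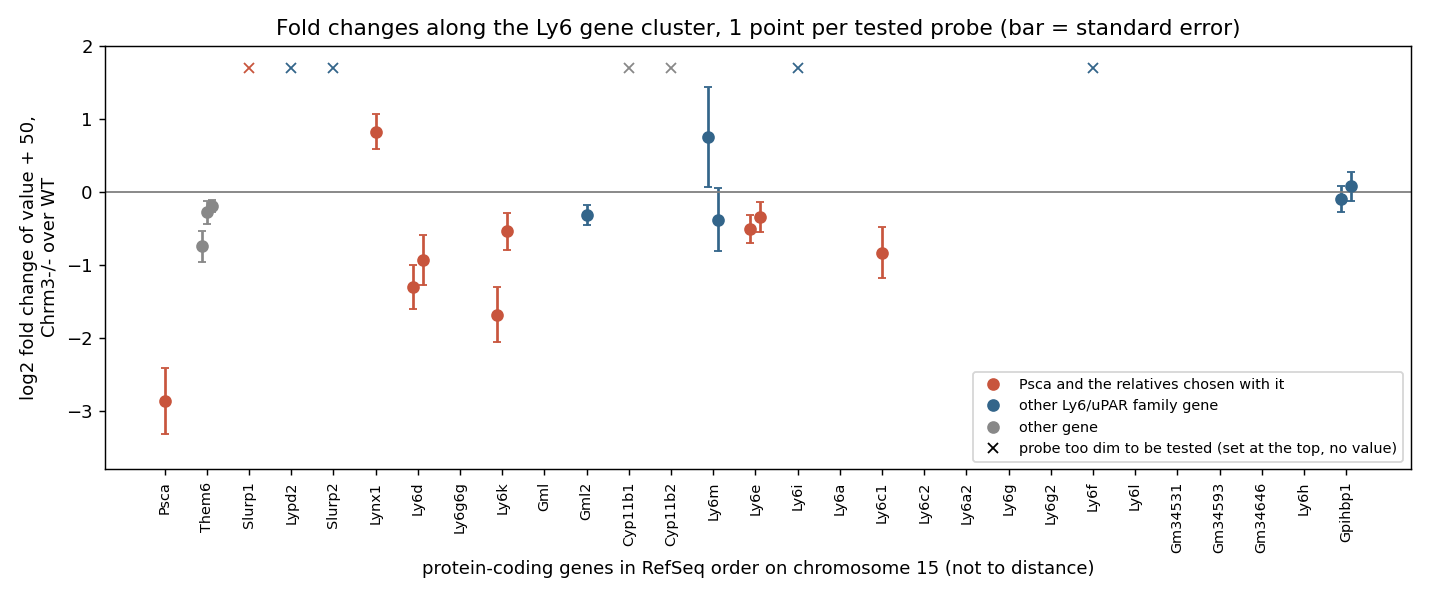
Log2 fold changes of value + 50, Chrm3-/- over WT, for tested probes of the 29 protein-coding genes from Psca to Gpihbp1 in their order on chromosome 15, with the standard error as bar. Psca and the brighter Ly6d and Ly6k probes lie below -1, Lynx1 between them lies above 0, crosses mark genes whose probe was too dim, and genes without a mark had no probe named here.

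Marker lists for cells in which Psca or its relatives are known were also read beside Psca. Of 11 stomach epithelium markers, 10 had a probe, 4 were tested with 2 below and 2 above WT (also without Chrm3-/- replicate 1), and Cldn18, Gkn2, Anxa10 and Muc6 were under the limit of 2 on all arrays. The summed level of the list was 3556 to 7772 in WT and 1867 to 3208 in Chrm3-/- tumors, and most of it was Ctse, an aspartic protease, at 4904, 7463 and 3516 against 1846, 2970 and 1656. Ctse had a log2 fold change of -1.25 (SE 0.33, limma adjusted p = 0.653), or -1.17 without Chrm3-/- replicate 1. Of 15 genes of regenerating or fetal-like intestinal epithelium, a state in which Ly6a is a known marker, 10 were tested and all 10 were below WT, with a median of -0.51, or -0.20 and 9 below WT without Chrm3-/- replicate 1. None of them passed the test. Gja1, a gap junction protein, was at 3425, 3509 and 3450 in WT tumors and 1661, 1982 and 2006 in Chrm3-/- tumors. Its log2 fold change was -0.87 (SE 0.14, limma adjusted p = 0.131), or -0.78 without Chrm3-/- replicate 1. The brighter S100a6 and Anxa3 stood at -0.12 and -0.27. Krt7 stood at -0.75, or -0.01 without Chrm3-/- replicate 1. The summed level of this list was 18828 to 21438 against 13335 to 18070. Ereg was under the limit of 2 on all arrays. T cell markers, 7 tested of 10, had 1 below WT, and 6 below WT without Chrm3-/- replicate 1, with sums of 2265 to 3426 against 1672 to 6042 and Cd8a under the limit of 2 on all arrays. The part of these cells in the Psca values was not tested.

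The genes whose profile was most like that of Psca were found from the root mean square difference of centred log2(value + 50) values over the 6 arrays, where 0 would be the same profile and a flat profile would be at 1.54. The closest named gene was Emb, a cell adhesion glycoprotein, at 0.38, followed by Nanos1 (0.50), Slc25a17 (0.51), Mgst1 (0.53), Mgp (0.55), Isl1 (0.56), Ankrd17 (0.57) and Zcchc9 (0.61). Emb had 461.5, 130.3 and 136.2 in WT tumors and values under 2 in all 3 Chrm3-/- tumors, with WT replicate 1 highest as for Psca. Of the relatives, the brighter Ly6k probe was nearest at 0.69, rank 19 of 22640 probes compared, and the brighter Ly6d probe followed at 1.04, rank 107. Plaur stood at 1.24, the brighter Ly6e probe at 1.26 and Ly6c1 at 1.29, all nearer to Psca than the median of 1.56, while Lynx1 stood at 1.97, rank 21908. The measure includes the genotype contrast that chose Psca, so it ranks likeness over these arrays only.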

How the data were processed

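RNA of 3 WT and 3 Chrm3-/- colon tumors, each of a separate mouse, was hybridized to Illumina MouseWG-6 bead arrays. The authors deposited a normalized intensity for each of 45281 probes. Their methods name cubic spline normalization and no background subtraction. Sorted values were identical on the 6 arrays, so differences between arrays in total signal cannot be seen. Which step made them identical, and the low values evenly spaced, is not stated in the sources read. No detection p-value could be tied to a sample, and 6 columns of a non-normalized table were not used because their names match no sample. The number of arrays limits the precision.

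Probes were named from the platform annotation (34885 with 1 symbol, 18 with several, 10378 unlisted). Values were taken as log2(value + 50). The 22641 probes at or above the median of mean log2 values were fitted with limma 3.58.1 in R 4.3.3 (lmFit, eBayes with trend), with genotype as the only term, two-sided, Benjamini-Hochberg adjusted over all tested probes, at a threshold of 0.05. The script was tested on simulated data. Other offsets, filters, a replicate block, array weights, a t-test, left-out arrays and averaged probes were tried. The rule for named genes allowed all members, any family gene with a tested probe, the 4 brightest genes of each other list and the 8 named probes most like Psca, and some of these are not described. A few neighbors (Them6, and the genes ranked beside Psca) were named after their values were seen. Members and lists were chosen with earlier results of these data known.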

Additional observations from a re-analysis of the deposited data

How the results depend on the processing

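The fold changes of the 10 tested member probes were run in 156 combinations of probe and alternative and none reversed. Of these, 96 concern relatives of Psca under alternatives that can move the estimate. The rest concern Psca or settings that change only the test. Where the groups of a probe do not overlap, no offset, array weight or left-out array can change its sign. Much of this count was therefore fixed in advance. With averaged probes, the value of a gene enters once for each of its probes. In 3 combinations a fold change passed the threshold where the main analysis did not, all with array weights. The number of relatives of Psca past the test was 0 in the main analysis and 3 with array weights, which gave Chrm3-/- replicate 3 a weight of 6.12 and replicates 1 and 2 weights of 0.256 and 0.386. It was 0 under every other alternative run, and the number of other family probes was 0 under each alternative run on them, which leaves out the averaging of probes. The number of all probes past the test was 28. It was 44 on plain log2 values, 12 without a filter, 12 with the upper 75% of probes, 252 with array weights and 9 with the t-test, and it ran from 4 to 31 when 1 array was left out, with 6, 5 and 4 without WT replicates 1, 2 and 3 and 4 without Chrm3-/- replicate 3. The cause was not tested. Replicate numbers did not pair the samples: same-numbered arrays correlated at -0.15, -0.03 and 0.02 in their deviations from group means. With the replicate number as a block, 1 of all probes, 0 relatives of Psca and 0 other family probes passed.

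The fold change of Psca ran from -4.19 to -2.31 over the alternatives and that of the brighter Ly6k probe from -5.59 to -1.11, the lowest on plain log2 values, where values under 2 hold only a rank. With 3 arrays for each genotype log2 fold changes had a median standard error of 0.19, and dim probes such as those of Slurp1 and the second Lynx1 probe gave no level.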
